A study of Homo sapiens with 36 samples.

Results

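U1 spliceosomal RNA is represented here by 5 gene copies, RNU1-1, RNU1-2, RNVU1-7, RNVU1-18 and RNVU1-29, out of 60675 genes in the deposited count table. They were chosen by name, after earlier results of these data had shown little U1 RNA in YTHDF2 RIP and more in YTHDF3 RIP. Those contrasts are therefore described below without a test, and nothing is read from a test of them between lines. The study measured RNA in 36 libraries of HEK293T, a line derived from human embryonic kidney, that carried 1 of 3 fusion proteins: YTHDF1-ADAR, YTHDF2-ADAR or YTHDF3-ADAR. In each line 3 libraries came from input RNA (a fraction of the lysate) and 3 each from RNA pulled down with antibodies against endogenous YTHDF1, YTHDF2 or YTHDF3 (RNA immunoprecipitation, RIP), which gives 12 groups. All 12 groups share the cell line, doxycycline at 1 ug/mL for 24 h to induce the fusion, DNase treatment and depletion of ribosomal RNA. No group is an untransfected line, an uninduced culture or a mock RIP, and the labels do not say whether the replicates were separate cultures, so the p-values measure the spread between these libraries only. Whether a line is 1 clone is not given in the sources used here.

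U1 RNA is the RNA part of the U1 small nuclear ribonucleoprotein (snRNP), which pairs with the 5′ splice site and starts the assembly of the spliceosome. It is transcribed by RNA polymerase II, passes through the cytoplasm to receive its ring of Sm proteins from the SMN complex, and returns to the nucleus, where it is one of the most abundant noncoding RNAs of a human cell. The YTHDF proteins are mostly cytoplasmic and bind RNA that carries N6-methyladenosine; ADAR deaminates adenosine, so the fusions leave edits on RNA they meet.

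All 5 copies lie on chromosome 1 of GRCh38 and are annotated as single exons of 164 bases. RNU1-1 (ENSG00000206652) is at chr1:16514122-16514285 on the minus strand, and RNU1-2 (ENSG00000207005) is at chr1:16895980-16896143 on the plus strand, within an intron of CROCC. RNVU1-18 (ENSG00000206737) is at chr1:143729407-143729570 on the minus strand. RNVU1-29 (ENSG00000273768) is at chr1:146376807-146376970 on the plus strand, within an intron of SEC22B4P, and RNVU1-7 (ENSG00000206585) is at chr1:148038753-148038916 on the minus strand. The RNVU1 symbols stand for variant U1. Reads that map to several places were counted at each place and without regard to strand, so a read that fits all copies enters all 5 counts, which are not independent measurements.

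Total counts per library ran from 12488434 to 37451291. In 2 lines, YTHDF2-ADAR and YTHDF3-ADAR, the 6 libraries of YTHDF1 RIP stood apart in composition: snoRNA genes took 0.696 to 4.35% of counts and mitochondrial mRNAs 3.15 to 8.58%, against 0.0360 to 0.564% and 0.561 to 3.06% in the other 30. Olfactory genes also differed without overlap, at 31.7 to 53.2 CPM in these 6 against 2.71 to 18.3 CPM in the 30. Protein-coding genes took 54.1 to 74.2% of counts in the 6 against 71.5 to 92.4%, ranges that overlapped. The share of MIR3648 also overlapped, at 3.13 to 7.52% in the 6 against 0.0253 to 5.63% in the 30. Totals of the 6, 12488434 to 16341320, overlapped those of the 30 through a single library. The others of the 30 had at least 20654747, and that library, the lowest, had 15921450. That lowest total, YTHDF2 RIP replicate 3 of YTHDF1-ADAR cells, also differed from replicates 1 and 2 of its group in snoRNA share (0.564% against 0.155 and 0.115%) and in protein-coding share (82.8% against 90.04 and 90.3%). Input replicate 1 of YTHDF1-ADAR cells differed from replicates 2 and 3 in MIR3648 share (5.63% against 0.107 and 0.304%). Its olfactory genes were also higher (13.6 against 4.22 and 4.58 CPM). Each fusion's own gene was highest in the input of the line named for it (YTHDF1 at 634 ± 97.4 CPM in YTHDF1-ADAR cells against 87.9 ± 2.03 and 94.0 ± 5.10 in the others, SD, n = 3), as the labels state. All 7 HEK293T lineage markers listed averaged at least 1 CPM in the inputs (summed 607 to 2661 CPM). So did 2 of 5 blood cell markers, 1 of 5 fibroblast markers and 2 of 5 epithelial and hepatocyte markers. These 3 lists summed to 4.86 to 11.4, 16.7 to 36.004 and 4.96 to 10.1 CPM, with HBB at 0 in all libraries.

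RNU1-1 had the highest counts of the 5 copies in 36 of 36 libraries, and its level is given as counts per 1000000 counts (CPM) after scaling by edgeR's trimmed mean of M values (TMM). CPM is a share of what was sequenced, so less U1 RNA and more of other RNA cannot be told apart, nor can fewer cells and less RNA per cell. In the inputs, RNU1-1 stood at 792, 2623 and 1285 CPM in YTHDF1-ADAR cells (1567 ± 947, SD, n = 3), at 1631, 853 and 319 CPM in YTHDF2-ADAR cells (934 ± 660), and at 656, 985 and 447 CPM in YTHDF3-ADAR cells (696 ± 271). The 3 input groups overlapped, and the highest input library held 3.31, 5.11 and 2.20 times as much RNU1-1 as the lowest of its line. Of all counts in an input library, 0.126 to 1.01% were in the 5 rows together, a share that counts 1 read at several copies.

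Input U1 RNA did not pass the test between lines. In edgeR's quasi-likelihood test over 31849 genes, 0 of 5 copies were called at an adjusted p (Benjamini-Hochberg) of 0.05 in any of the 3 comparisons, where 17.6% (13.3% higher, 4.3% lower), 16.4% (11.3% higher, 5.1% lower) and 3.42% (1.27% higher, 2.15% lower) of all genes were called. The copies' median log2 differences were 0.74 for YTHDF1-ADAR against YTHDF2-ADAR cells (adjusted p = 0.473 to 0.492, edgeR), 1.17 for YTHDF1-ADAR against YTHDF3-ADAR cells (adjusted p = 0.260 to 0.269, edgeR) and 0.43 for YTHDF2-ADAR against YTHDF3-ADAR cells (adjusted p = 0.848 to 0.854, edgeR). Standard errors were 0.69 to 0.71, so differences of this size were within the spread of the libraries, and the lines are not shown to be alike. The calls depended on the filter on low counts: without it, 5 of 5 copies were called higher in YTHDF1-ADAR inputs in the first 2 comparisons (RNU1-1 at 0.67 and 1.14, adjusted p = 0.0112 and 1.75e-06, edgeR). Those RNU1-1 values were close to the ones with the filter (0.75 and 1.17). The unfiltered fit gave RNU1-1 a smaller standard error in YTHDF1 RIP of YTHDF1-ADAR cells (0.222 against 0.764), so these calls are not read as support.

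In YTHDF2 RIP, RNU1-1 had its 3 lowest group means of the study. It stood at 38.0, 34.4 and 99.7 CPM in YTHDF1-ADAR cells (57.4 ± 36.7, SD, n = 3), at 19.7, 40.2 and 17.4 CPM in YTHDF2-ADAR cells (25.8 ± 12.5), and at 17.6, 21.3 and 15.4 CPM in YTHDF3-ADAR cells (18.1 ± 2.98). In each line the highest YTHDF2 RIP library was below the lowest input, and the input mean was 27.3, 36.3 and 38.4 times the RIP mean. The same gap between groups held for all 5 copies in the 3 lines, where 18.7%, 19.5% and 19.8% of tested genes were lower without overlap; nothing is read from that count, because the copies were chosen for it. Fitted log2 changes from input had a median over the 5 copies of -4.80 in YTHDF1-ADAR cells, -5.21 in YTHDF2-ADAR cells and -5.29 in YTHDF3-ADAR cells, beside medians over all genes of -0.11, 0.02 and 0.00.

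In YTHDF3 RIP, RNU1-1 was higher than in YTHDF2 RIP and lower than in input in the group means of each line. It stood at 202, 367 and 232 CPM in YTHDF1-ADAR cells (267 ± 88.2, SD, n = 3), at 264, 1212 and 156 CPM in YTHDF2-ADAR cells (544 ± 581), and at 142, 86.0 and 88.7 CPM in YTHDF3-ADAR cells (105 ± 31.4). The YTHDF3 RIP range lay wholly below the input range in YTHDF1-ADAR and YTHDF3-ADAR cells, and overlapped it in YTHDF2-ADAR cells through replicate 2 at 1212 CPM, where 23.8%, 21.8% and 22.4% of tested genes lay wholly below input in the 3 lines. In all 3 lines it lay wholly above the YTHDF2 RIP range, with means 4.65, 21.1 and 5.82 times as high; 14.4%, 15.6% and 14.3% of tested genes were higher in that way, and nothing is read from the 5 of 5 copies, which were chosen for it.

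The fitted change from input to YTHDF3 RIP had a median over the copies of -2.56 in YTHDF1-ADAR cells, -0.78 in YTHDF2-ADAR cells and -2.73 in YTHDF3-ADAR cells (log2; medians over all genes -0.23, 0.09 and 0.01). YTHDF3 RIP against YTHDF2 RIP gave medians of 2.24, 4.42 and 2.56 in the same order (medians over all genes -0.12, 0.02 and 0.00). Without replicate 2 of YTHDF3 RIP in YTHDF2-ADAR cells, the values in that line became -2.26 against input and 3.00 against YTHDF2 RIP, nearer to those of the other 2 lines. Without replicate 3 of YTHDF2 RIP in YTHDF1-ADAR cells, the library at 99.7 CPM whose composition differed from its group, YTHDF3 RIP against YTHDF2 RIP there was 2.95. These comparisons share libraries (YTHDF2 RIP and YTHDF3 RIP have 1 set of inputs in each line), so their values are given side by side only.

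**Figure D1:**
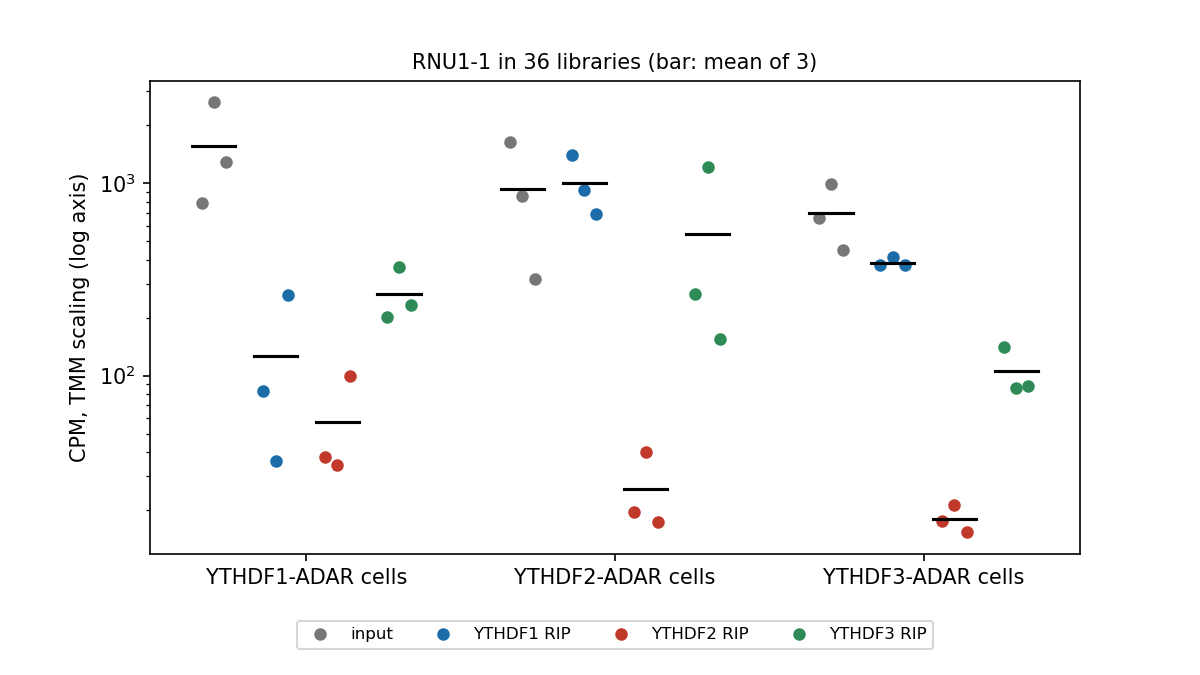
Level of RNU1-1 in each of the 36 libraries, as TMM-scaled CPM on a log axis, by line and by input or RIP; points are libraries and bars are means of 3. YTHDF2 RIP libraries (15.4 to 99.7 CPM) lie below all inputs (319 to 2623 CPM). YTHDF3 RIP replicate 2 of YTHDF2-ADAR cells, at 1212 CPM, lies within the inputs of its line. YTHDF3 RIP replicate 2 of YTHDF1-ADAR cells, at 367 CPM, is above the lowest input of the study but below the inputs of its own line.

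Relative to input, mean U1 RNA in YTHDF1 RIP was lowest in YTHDF1-ADAR cells, lower by less in YTHDF3-ADAR cells and near input in YTHDF2-ADAR cells. RNU1-1 stood at 83.3, 35.96 and 261 CPM in YTHDF1-ADAR cells (127 ± 119, SD, n = 3), at 1404, 920 and 689 CPM in YTHDF2-ADAR cells (1004 ± 365), and at 375, 411 and 375 CPM in YTHDF3-ADAR cells (387 ± 21.0). The first group lay wholly below its inputs, the second overlapped its inputs, and the third lay just below its inputs for RNU1-1 and RNU1-2 and overlapped them for the other 3 copies (28.2%, 37.2% and 35.8% of tested genes lay wholly below input).

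In YTHDF1-ADAR cells 5 of 5 copies fell from input to YTHDF1 RIP (median log2 change -3.63, range -3.64 to -3.62, standard error 0.76 to 0.77, adjusted p = 0.000271 to 0.000315, edgeR), where 28.8% of all genes were called lower, 49.5% were called in either direction and the median over all genes was -0.28. RNU1-2's place among the lowest genes of this comparison was known from earlier results, so the call is not independent support. In YTHDF2-ADAR cells 0 of 5 copies were called (median 0.24, adjusted p = 0.685 to 0.896, edgeR), with 75.2% of all genes called in either direction and a median over all genes of 0.20. In YTHDF3-ADAR cells 0 of 5 were called (median -0.70, adjusted p = 0.274 to 0.431, edgeR; 73.2% of all genes called, median over all genes 0.21). For that line, a fit of only the 2 groups compared called 5 of 5 lower (RNU1-1 at -0.78, adjusted p = 0.00232, edgeR), and so did the fit without a filter on low counts (RNU1-1 at -0.94, adjusted p = 1.39e-05, edgeR). The unfiltered call is not read as support, as for the inputs.

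The change from input to YTHDF1 RIP differed between lines for 5 of 5 copies in the quasi-likelihood F test of the interaction (adjusted p = 0.00407 to 0.00620, edgeR). That test asks for any difference among the lines. U1 RNA in YTHDF1-ADAR cells was lower, relative to input, than in the mean of the other 2 lines by a log2 difference with a median of -3.40 (range -3.49 to -3.25, standard error 0.87 to 0.89). One side of this test is the YTHDF1-ADAR change, whose low RNU1-2 value was known from earlier results, so it is not independent support either. That test called 63.7% of all tested genes: 39.0% of all tested genes were lower in YTHDF1-ADAR cells and 24.8% were higher, and the median over all genes was -0.45. The other 2 lines' YTHDF1 RIP libraries are the 6 that stood apart in snoRNA and mitochondrial share, so line and library set cannot be told apart. In those 2 lines, 5 of 5 listed nuclear long noncoding RNAs that were tested rose from input to YTHDF1 RIP (MALAT1 by 1.78 and 1.88, NEAT1 by 1.66 and 2.47), where 41.8% and 40.8% of all genes rose, against 0 of 5 in YTHDF1-ADAR cells, where 20.6% rose.

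In the same test of a difference between lines, 0 of 5 copies were called for YTHDF2 RIP or for YTHDF3 RIP. The copies were chosen for their values in these RIPs, so nothing is read from that. The log2 difference of YTHDF1-ADAR cells from the mean of the other lines had a median of 0.45 for YTHDF2 RIP and -0.80 for YTHDF3 RIP. Of all genes, 0 were called by edgeR for YTHDF2 RIP (1064 at an unadjusted p under 0.05, and 3 by DESeq2), which is 0.0%, and 2 for YTHDF3 RIP, or 0.00628%, 0.00314% in each direction (1632 at an unadjusted p under 0.05, and 6 by DESeq2). With standard errors of 0.84 to 0.86, this does not show that the lines were alike. Without the filter on low counts, 5 of 5 copies were called for YTHDF3 RIP (RNU1-1 at -0.75), and nothing is read from that either. The test asks for any difference among the lines, whereas the log2 value sets YTHDF1-ADAR cells against the others. In YTHDF3 RIP the value furthest from the others was that of YTHDF2-ADAR cells, with a median change from input of -0.78. It was -2.56 in YTHDF1-ADAR and -2.73 in YTHDF3-ADAR cells. Without YTHDF3 RIP replicate 2 of YTHDF2-ADAR cells, the value of that line was -2.26. The gap thus rests mostly on 1 library, and no difference between lines is read from it.

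Ordered by mean, the 12 groups ran for RNU1-1 from YTHDF1-ADAR input (1567 CPM) through YTHDF1 RIP of YTHDF2-ADAR cells (1004), YTHDF2-ADAR input (934), YTHDF3-ADAR input (696), YTHDF3 RIP of YTHDF2-ADAR cells (544) and YTHDF1 RIP of YTHDF3-ADAR cells (387). The lower 6 were YTHDF3 RIP of YTHDF1-ADAR cells (267), YTHDF1 RIP of YTHDF1-ADAR cells (127), YTHDF3 RIP of YTHDF3-ADAR cells (105) and the 3 YTHDF2 RIP groups (57.4, 25.8 and 18.1). Between neighbours in this order the ranges of the libraries overlapped, except between the sixth and the seventh. The other 4 copies had the same order.

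Libraries of 1 group differed more in U1 RNA than in most genes. The pooled standard deviation of log2 CPM within groups was 0.85 for RNU1-1 and 0.86 for the other 4 copies, against a median of 0.22 over 2149 genes that averaged at least 100 CPM, 98.4% of which varied less than RNU1-1. Other noncoding RNAs of the nucleus also varied: RNU4-2, a U4 RNA of the tri-snRNP, had 0.90, RNU2-2P, a U2 RNA copy, 0.66, and RN7SK, the RNA that holds the elongation factor P-TEFb inactive, 0.63. In YTHDF3 RIP replicate 2 of YTHDF2-ADAR cells, where RNU1-1 was 1212 CPM against 264 and 156, RNU2-2P was at 11.6 CPM against 3.77 and 7.56, RNU4-2 at 4.71 against 2.41 and 2.34, RNU4-1 at 3.10 against 1.35 and 1.13, and RNU12 at 1.71 against 1.09 and 0.908. These 4 were highest in the same library as U1, whereas RN7SK was at 557 against 496 and 643.

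The ratio of the copies to each other separated the 6 libraries that stood apart. In the other 30 libraries the count of RNVU1-29 was 81.7 to 86.0% of that of RNU1-1, and RNU1-2 was at 89.0 to 95.2%, RNVU1-18 at 85.4 to 90.8% and RNVU1-7 at 82.1 to 90.0%. In the 6 that stood apart RNVU1-29 was at 98.9 to 99.1%, and the lowest copy reached at least 98.9% of the highest. The 2 ranges do not overlap, and the 3 YTHDF1 RIP libraries of YTHDF1-ADAR cells lay with the 30. Over the 36 libraries the order RNU1-1, RNU1-2, RNVU1-18, RNVU1-7, RNVU1-29 held in 30, and the lowest correlation between any pair of copies was 0.999. What sets the ratio was not tested.

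**Figure D2:**
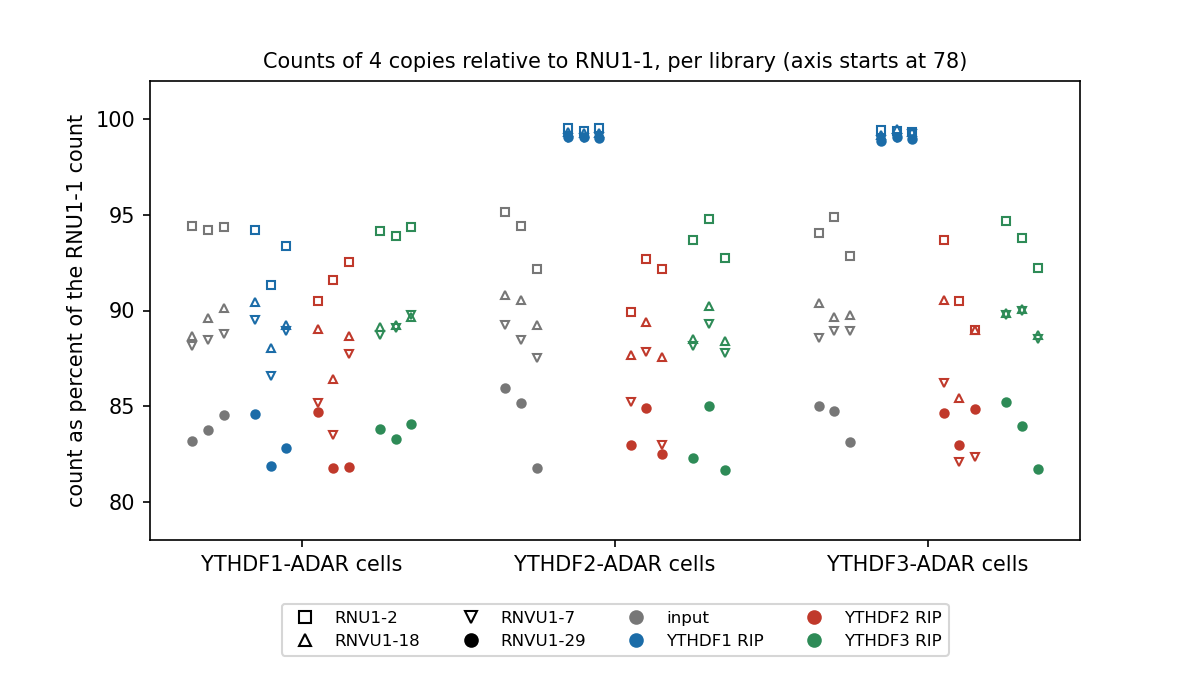
Count of RNU1-2, RNVU1-18, RNVU1-7 and RNVU1-29 as a percentage of the RNU1-1 count in the same library, by line and group; the axis starts at 78%. Filled circles (RNVU1-29) lie between 81.7 and 86.0% except in YTHDF1 RIP of 2 lines, YTHDF2-ADAR and YTHDF3-ADAR, whose 6 libraries lie at 98.9 to 99.1%.

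Besides these 5, the annotation names 138 other U1 genes, most of them pseudogenes: 42 had no count in any library, 122 averaged under 1 CPM and 43 passed the filter on low counts. Of these, 4 averaged at least 100 CPM, led by RNU1-3 (478 CPM, chromosome 1), RNU1-4 (458 CPM, chromosome 1) and RNU1-28P (443 CPM, chromosome 14), whose log2 CPM correlated with the mean of the 5 copies at 0.999 or above over the 36 libraries. A further gene annotated as U1 on a scaffold outside the assembled chromosomes, at 442 CPM, is in none of these counts. These 4, RNU1-27P being the fourth, had almost the same values as the 5, for instance a median of -5.07 in YTHDF2 RIP of YTHDF2-ADAR cells, and are not read as further evidence.

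The remaining 39 tested U1 genes had few counts, and 6 variant genes averaged between 2 and 100 CPM; these 6 were singled out after their values were seen. RNVU1-14 (16.9 CPM on average, chr1:145281116-145281279, plus strand, overlapping an exon of a long noncoding RNA without a symbol), RNVU1-27 (9.87 CPM, chr1:148522601-148522765, plus strand), RNVU1-31 (8.97 CPM, chr1:145465617-145465780, minus strand), RNVU1-34 (5.98 CPM, chr17:58679527-58679690, minus strand, in introns of TEX14 and IGBP1P2), RNVU1-15 (5.81 CPM, chr1:144412576-144412740, plus strand) and RNVU1-28 (3.54 CPM, chr1:144560666-144560829, minus strand) did not have 1 shared pattern.

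RNVU1-31 followed the 5 copies (correlation of its log2 CPM with their mean 0.968 over the 36 libraries). Reads that it may share with them were not separated, so it is not read as separate support. It stood in the inputs at 17.5, 58.1 and 25.8 CPM in YTHDF1-ADAR cells, at 27.7, 19.3 and 9.28 CPM in YTHDF2-ADAR cells and at 10.4, 11.9 and 7.10 CPM in YTHDF3-ADAR cells, and in YTHDF2 RIP no library exceeded 2.57 CPM. It fell in YTHDF2 RIP in each line (log2 changes of -4.53, -4.95 and -5.43, adjusted p = 4.22e-05, 5.85e-05 and 0.000125, edgeR). RNVU1-31 also shared the high YTHDF3 RIP library of YTHDF2-ADAR cells, at 23.3 CPM against 3.60 and 2.04, and was higher in YTHDF3 than in YTHDF2 RIP there (3.99 ± 0.79, SE, adjusted p = 0.000554, edgeR). It was not called in the other 2 lines (1.34 and 2.17, adjusted p = 0.218 and 0.188, edgeR). Without that library the YTHDF2-ADAR value was 2.20 (adjusted p = 0.0225, edgeR). RNVU1-28 likewise fell in YTHDF2 RIP in each line (-3.47, -4.01 and -3.25) and in YTHDF3 RIP in each line (-3.59, -1.57 and -3.24), the second of which was lost without any 1 of 3 libraries (adjusted p = 0.0826 to 0.0946, edgeR).

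RNVU1-14 had another order of the groups. It stood in YTHDF2 RIP at 40.1, 23.8 and 25.7 CPM in YTHDF1-ADAR cells, at 27.03, 33.1 and 25.3 CPM in YTHDF2-ADAR cells and at 20.4, 34.8 and 51.0 CPM in YTHDF3-ADAR cells. In YTHDF3 RIP it stood at 3.66 to 5.86, 3.38 to 5.01 and 5.02 to 7.44 CPM, below YTHDF2 RIP in every library of each line. Its input levels were 6.67, 23.9 and 15.1 CPM in YTHDF1-ADAR cells, 22.3, 23.8 and 15.6 CPM in YTHDF2-ADAR cells and 22.8, 15.8 and 23.7 CPM in YTHDF3-ADAR cells. RNVU1-14 was not called in YTHDF2 RIP against input (0.97, 0.47 and 0.77, adjusted p = 0.0771, 0.458 and 0.189, edgeR), fell in YTHDF3 RIP (-1.61, -2.38 and -1.81, adjusted p = 0.00294, 6.32e-05 and 0.00101, edgeR) and was lower in YTHDF3 than in YTHDF2 RIP (-2.58, -2.85 and -2.58, adjusted p = 4.63e-05, 1.97e-05 and 9.40e-05, edgeR).

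RNVU1-27 and RNVU1-15 had the same calls as RNVU1-14 in these comparisons. Neither was called in YTHDF2 RIP against input in any line, and both fell in YTHDF3 RIP and were lower in YTHDF3 than in YTHDF2 RIP in all 3. The uncalled changes in YTHDF2 RIP differed in sign. In YTHDF1-ADAR and YTHDF2-ADAR cells they were -0.14 and -0.58 for RNVU1-27, and 0.40 and -0.17 for RNVU1-15. For RNVU1-27, YTHDF3 against YTHDF2 RIP gave -2.19, -1.73 and -2.12 (adjusted p = 0.000747, 0.00621 and 0.00177, edgeR), the second of which was lost without YTHDF3 RIP replicate 1 or 3 (0.0700 and 0.0664). For RNVU1-15 it gave -2.53, -2.93 and -2.38 (adjusted p = 2.70e-05, 7.61e-06 and 0.000128, edgeR). RNVU1-34 was between: it fell in YTHDF3 RIP in each line (-3.04, -3.40 and -3.34) and in YTHDF2 RIP it was called in YTHDF2-ADAR cells alone (-2.12, adjusted p = 0.00336, edgeR; -1.10 and -1.38 in the others, adjusted p = 0.112 and 0.0555). All 6 fell in YTHDF1 RIP of YTHDF1-ADAR cells, from -1.64 for RNVU1-14 to -4.13 for RNVU1-31. How many reads these 6 share with the 5 copies, with each other or with overlapping genes was not tested.

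Counted over the 39 low U1 genes, 0 rose and 3, 6 and 3 fell in YTHDF2 RIP of the 3 lines; RNVU1-28, RNVU1-31 and RNVU1-6 were among them in each line, with RNVU1-21, RNVU1-3 and RNVU1-34 added in YTHDF2-ADAR cells (named after their values were seen). In YTHDF3 RIP 15, 14 and 15 fell, and 0, 1 (RNU1-6P) and 0 rose. In YTHDF1 RIP 2 rose (RNU1-6P at 2.91 and RNU1-82P at 1.66) and 17 fell in YTHDF1-ADAR cells, while 20 rose and 6 fell in YTHDF2-ADAR cells and 19 rose and 8 fell in YTHDF3-ADAR cells. Many of these genes averaged under 1 CPM, and the filter keeps a gene that reaches its minimum in 3 libraries. A gene can thus be tested only through a group where it is high. The YTHDF1 RIP libraries of the last 2 lines are the 6 that stood apart, so nothing is read from the rises there. Of all genes, YTHDF1 RIP called 20.6%, 41.8% and 40.8% higher and 28.8%, 33.4% and 32.4% lower, YTHDF2 RIP called 8.66%, 10.2% and 8.98% higher and 15.5%, 10.1% and 9.93% lower, and YTHDF3 RIP called 11.5%, 15.2% and 13.5% higher and 20.1%, 16.9% and 16.1% lower. In the inputs of YTHDF1-ADAR against YTHDF2-ADAR cells 4 pseudogenes that averaged 0.0802 to 0.264 CPM were higher (RNU1-129P, RNU1-100P, RNU1-72P and RNU1-134P) and RNU1-82P was lower. Against YTHDF3-ADAR inputs, RNVU1-31 (1.78, adjusted p = 0.0499, edgeR, lost without any 1 library) and RNU1-129P (2.68) were higher in YTHDF1-ADAR inputs. Of all genes, 13.3% were called higher and 4.3% lower in the first input comparison, and 11.3% and 5.1% in the second. Nothing is read from these few calls among the 39.

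The other spliceosomal small nuclear RNAs are the partners of U1 in splicing: U2 pairs with the branch point, U4, U5 and U6 form the tri-snRNP, and U11, U12, U4atac and U6atac serve the minor spliceosome. In YTHDF2 RIP 15, 15 and 16 of 17 tested fell in the 3 lines, in the same order as above, and 0 rose (medians -2.13, -2.72 and -2.08), where 15.5%, 10.1% and 9.93% of all genes were called lower and 24.1%, 20.3% and 18.9% in either direction. A fit of only the 2 groups compared called 7 in YTHDF1-ADAR cells. In YTHDF3 RIP 15, 17 and 16 of 17 fell and 0 rose (medians -2.32, -2.92 and -2.68), against 20.1%, 16.9% and 16.1% of all genes (31.6%, 32.0% and 29.6% in either direction). None of the 17 was called higher in YTHDF3 than in YTHDF2 RIP in any line, and 0, 2 (RNU11 and RNU12) and 1 (RNU12) were called lower (of all genes, 8.51%, 8.33% and 5.74% were called higher, 10.7%, 12.1% and 9.01% lower, and 19.2%, 20.4% and 14.8% in either direction).

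RNU2-2P showed this at a high level. It stood at 67.4, 332 and 227 CPM in YTHDF1-ADAR inputs, 209, 151 and 101 CPM in YTHDF2-ADAR inputs and 160, 81.2 and 136 CPM in YTHDF3-ADAR inputs. In YTHDF2 RIP it was at 17.2, 18.5 and 57.2 CPM, at 5.66, 11.4 and 9.75 CPM and at 7.12, 10.5 and 10.2 CPM, and in YTHDF3 RIP at 10.2, 8.15 and 17.1 CPM, at 3.77, 11.6 and 7.56 CPM and at 4.99, 3.86 and 7.98 CPM. RNU2-2P fell in YTHDF2 RIP (-2.76, -4.10 and -3.76) and in YTHDF3 RIP (-4.14, -4.33 and -4.48). The YTHDF2 and YTHDF3 RIP ranges of RNU2-2P overlapped in YTHDF2-ADAR and YTHDF3-ADAR cells and lay beside each other without overlap in YTHDF1-ADAR cells. RNU4-2 and RNU4-1, the U4 genes, gave -2.57, -4.36 and -3.78, and -2.58, -4.30 and -3.85, in YTHDF2 RIP, and -3.16, -4.49 and -3.88, and -3.27, -4.42 and -4.18, in YTHDF3 RIP. With only the 2 groups fitted, the U4 calls in YTHDF2 RIP of YTHDF1-ADAR cells were lost (adjusted p = 0.0880 for RNU4-2 and 0.0980 for RNU4-1, edgeR). RNU12, the minor U12 RNA, gave -1.42, -1.48 and -1.48 in YTHDF2 RIP, each lost without some single library (adjusted p up to 0.137, 0.0992 and 0.0986, edgeR), and -2.32, -2.92 and -3.65 in YTHDF3 RIP.

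In YTHDF1 RIP of YTHDF1-ADAR cells 14 of 17 fell and 1, RNU6-1 (1.46 CPM on average, log2 change 1.01), rose. In YTHDF2-ADAR cells 0 were called and in YTHDF3-ADAR cells 8 fell and 0 rose, but scaling by total counts gave 4 calls in each. Of all genes, 28.8%, 33.4% and 32.4% fell in YTHDF1 RIP of the 3 lines. Without input replicate 1, RNU6-1 was at 0.73 (adjusted p = 0.0536, edgeR). The interaction test called 12 of 17, beside 63.7% of all genes, and 11 of the 17 lower in YTHDF1-ADAR cells, beside 39.0%, with RNU2-2P at -3.59, RNU4-2 at -3.28, RNU4-1 at -3.59 and RNU12 at -2.62. The RNU4-2 call was lost without YTHDF1 RIP replicate 2 of YTHDF1-ADAR cells or replicate 1 of YTHDF2-ADAR cells (adjusted p = 0.0697 and 0.0551, edgeR). The 6 libraries that stood apart are again 1 side of this test. RN7SK, the 7SK RNA, fell in each of the 9 RIP comparisons (-2.28, -1.84 and -2.16 in YTHDF1 RIP, -3.22, -2.06 and -2.10 in YTHDF2 RIP, and -4.44, -3.75 and -3.52 in YTHDF3 RIP).

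**Figure D3:**
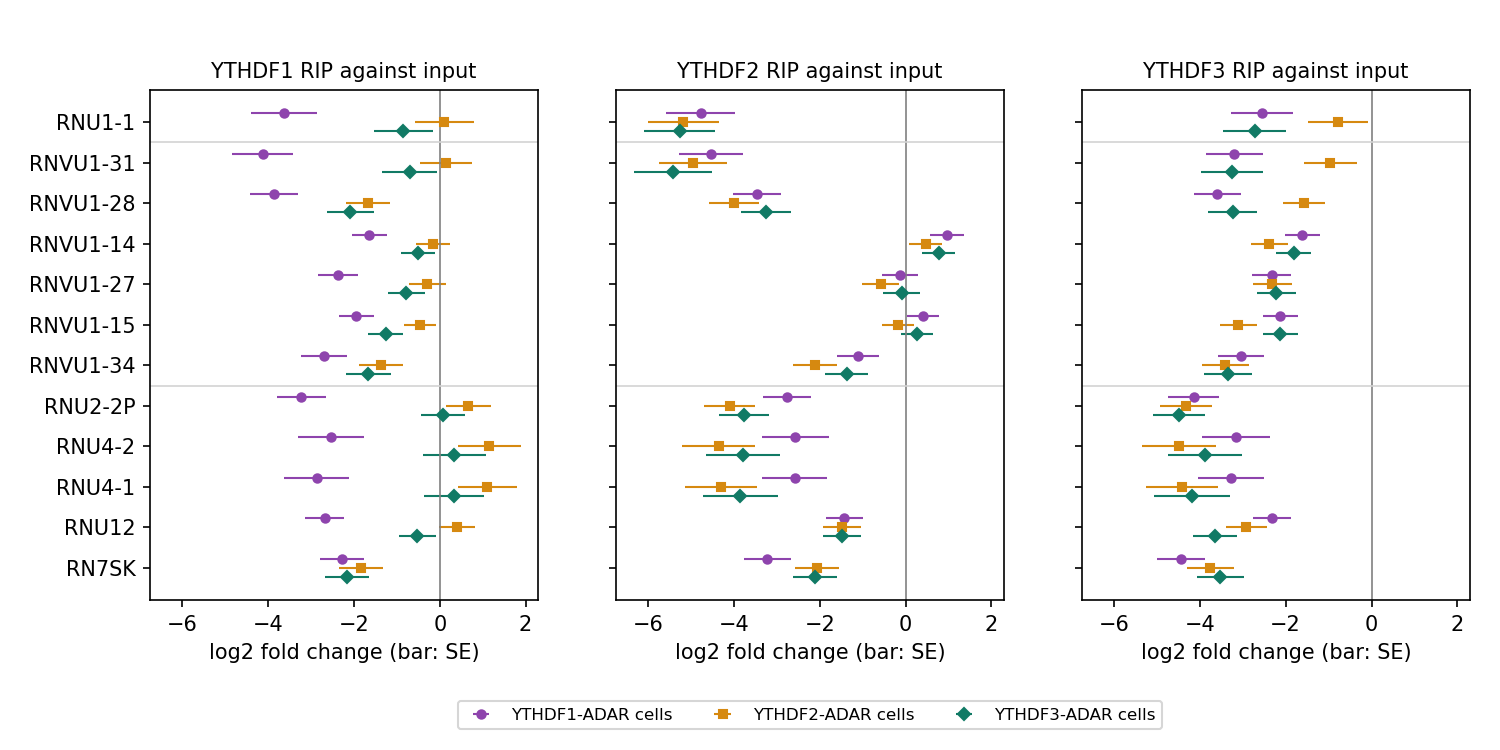
Fitted log2 fold change from input to YTHDF1, YTHDF2 or YTHDF3 RIP in each line, with its standard error, for RNU1-1, the 6 variant U1 genes and other small nuclear RNAs. In the middle panel RNU1-1, RNVU1-31 and RNVU1-28 lie between -5.43 and -3.25 while RNVU1-14, RNVU1-27 and RNVU1-15 lie between -0.58 and 0.97; the RNU1-1 values in the middle and right panels were used to choose the copies.

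**Figure D4:**
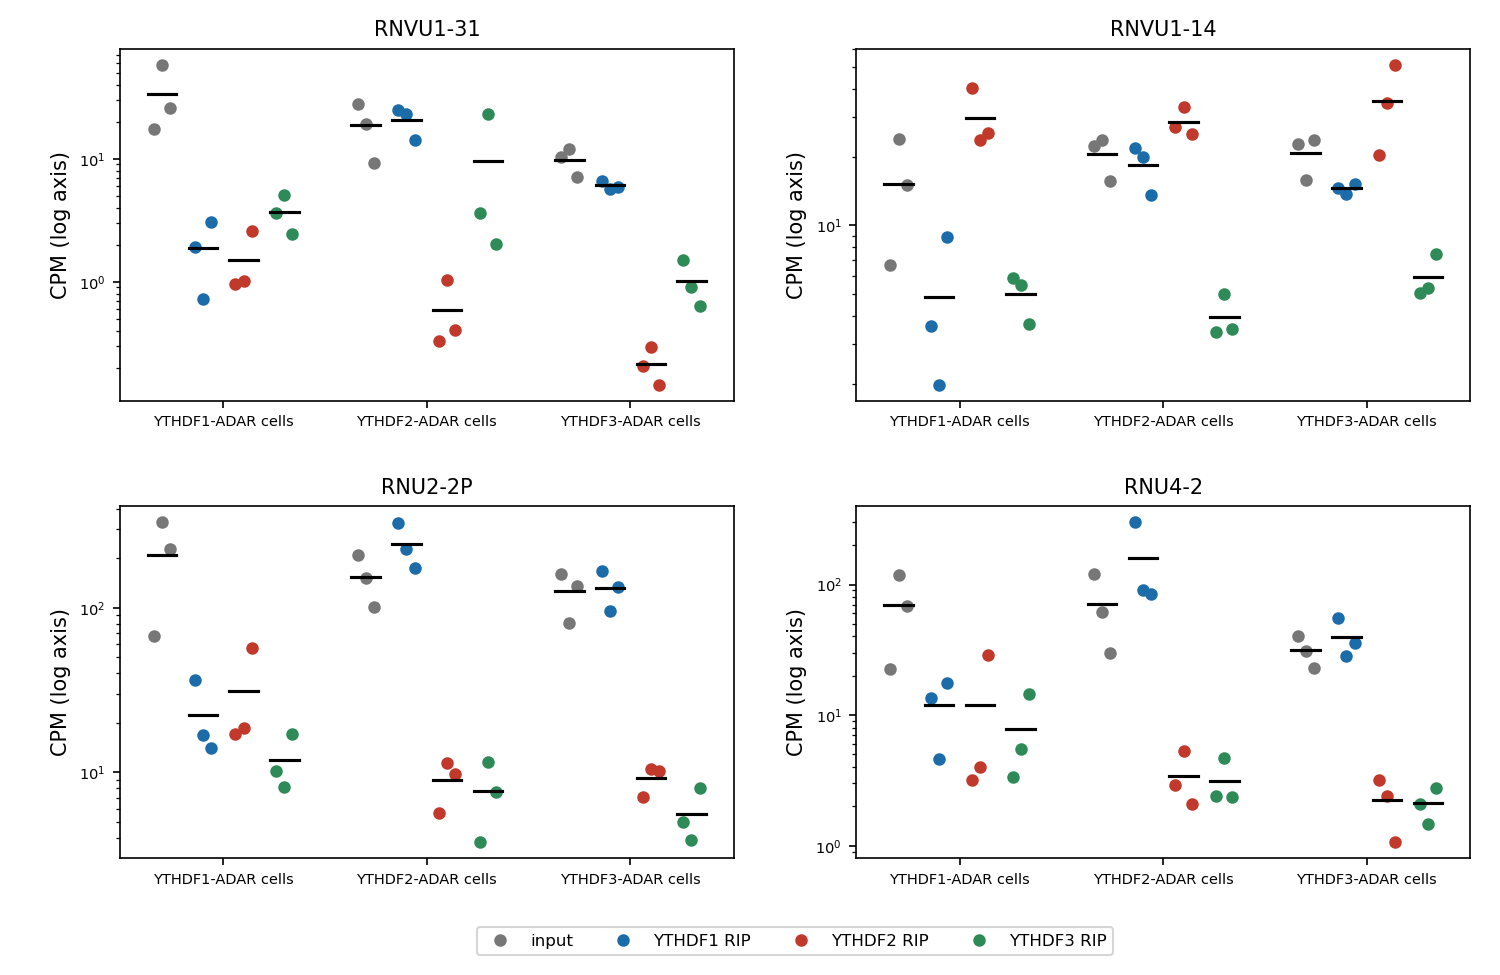
Levels of RNVU1-31, RNVU1-14, RNU2-2P and RNU4-2 in each library as TMM-scaled CPM on log axes that differ between panels, by line and group; bars are means of 3 libraries. RNVU1-31 is at 2.57 CPM or less in YTHDF2 RIP, RNVU1-14 is at 20.4 CPM or more there, and RNU2-2P is below its inputs in YTHDF2 and YTHDF3 RIP of each line.

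The mRNAs of the U1 snRNP proteins are a separate readout from the RNA itself. SNRNP70, which encodes the U1-70K protein that contacts stem loop I, rose in YTHDF2 RIP in YTHDF1-ADAR and YTHDF2-ADAR cells (0.82 ± 0.17, adjusted p = 0.000375, and 0.57 ± 0.17, SE, adjusted p = 0.0143, edgeR) and was at 0.41 in YTHDF3-ADAR cells (adjusted p = 0.0915, edgeR). The SNRNP70 call in YTHDF2-ADAR cells was lost without any 1 of the inputs or YTHDF2 RIP replicate 2 (adjusted p = 0.0543 to 0.154, edgeR). In YTHDF3 RIP SNRNP70 was at -0.05, -0.19 and -0.30, not called. SNRPA, which encodes U1-A, fell in YTHDF2 RIP (-1.73, -1.16 and -0.95) and in YTHDF1 RIP (-1.19, -1.93 and -1.78) in every line, and in YTHDF3 RIP was at 0.05, -0.15 and -0.09, not called. SNRPC, which encodes U1-C, the protein that steadies pairing with the splice site, fell in each of the 9 RIP comparisons, from -1.60 to -2.39. Of the 7 tested mRNAs of the Sm ring proteins, 7, 7 and 7 fell in YTHDF1 RIP, 6, 4 and 6 in YTHDF2 RIP and 7, 7 and 7 in YTHDF3 RIP, and 0 rose. Of all genes, 28.8%, 33.4% and 32.4% fell in YTHDF1 RIP, 15.5%, 10.1% and 9.93% in YTHDF2 RIP and 20.1%, 16.9% and 16.1% in YTHDF3 RIP. SNRPD2 had the values -2.61, -2.18 and -2.23 in YTHDF2 RIP and -3.46, -3.04 and -3.04 in YTHDF3 RIP, and SNRPB -1.03, -0.35 and -0.79, and -2.41, -1.86 and -2.17; SNRPB in YTHDF2-ADAR cells was not called in YTHDF2 RIP.

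Genes that build U1 or work beside it were counted next, to be read beside the shares of all genes that fell, just given, and that rose (20.6%, 41.8% and 40.8% in YTHDF1 RIP, 8.66%, 10.2% and 8.98% in YTHDF2 RIP, and 11.5%, 15.2% and 13.5% in YTHDF3 RIP). Of 10 mRNAs of the SMN complex, which loads Sm proteins onto U1, 10 and 10 fell and 0 rose in YTHDF1 RIP of YTHDF2-ADAR and YTHDF3-ADAR cells, while in YTHDF1-ADAR cells 4 rose and 5 fell. Scaling by total counts called 2 in YTHDF2-ADAR cells and 8 in YTHDF3-ADAR cells. GEMIN4 was at 2.43 and DDX20 (Gemin3) at 1.42 in YTHDF1 RIP of YTHDF1-ADAR cells, both called. GEMIN5, which recognises snRNAs for the complex, rose in YTHDF3 RIP in each line (1.02, 0.91 and 0.82), though not without YTHDF3 RIP replicate 1 in YTHDF3-ADAR cells (0.54, adjusted p = 0.0521, edgeR). In YTHDF2 RIP 2, 0 and 0 of the 10 rose and 6, 4 and 3 fell. Of 30 genes of snRNA transcription and maturation 4, 5 and 4 rose and 8, 6 and 3 fell in YTHDF2 RIP, and 7, 5 and 5 rose and 6, 7 and 6 fell in YTHDF3 RIP (medians -0.10, 0.13 and -0.04, and 0.06, -0.07 and 0.01). Of 10 U1-associated splicing factors 1, 1 and 0 rose and 1, 1 and 2 fell in YTHDF2 RIP. DDX23 was the 1 that rose (0.70 and 0.68), and both calls were lost without some single library (adjusted p up to 0.218 and 0.167, edgeR).

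Of 13436 genes other than U1 with a mean log2 CPM of at least 2, those whose log2 group means over the 12 groups were most like the mean of the 5 copies by Pearson's r were TERF1 (0.946), VPS37A (0.945), POLK (0.933), KIAA1586 (0.918) and CDCA3 (0.915). TERF1 encodes a telomere-binding protein and POLK a translesion DNA polymerase. Their range was far smaller than that of U1: TERF1 ran from 15.3 CPM in YTHDF2 RIP of YTHDF3-ADAR cells to 31.1 CPM in YTHDF1 RIP of YTHDF2-ADAR cells, whereas RNU1-1 spanned 18.1 to 1567 CPM. The 12 points share libraries and scaling factors, so r is a description. RN7SK had r = 0.45.

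In the authors' deposited table, which gives 1 log2 fold change per antibody over the lines, RNU1-1 had -1.41 for YTHDF1, -4.88 for YTHDF2 and -1.74 for YTHDF3, and RNVU1-29 had -1.20, -4.90 and -1.74. The value for YTHDF1 in the authors' deposited table lies between the fitted values of the lines given above. The deposited editing tables list 7829, 2402 and 2944 genes for the 3 lines in turn, and 0 of the 5 copies, 0 other U1 genes and 0 genes annotated as small nuclear RNA are among them; which sites or genes could have been listed is not given in the sources used here.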

How the data were processed

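RNA was sequenced from 36 libraries in 12 groups of 3. Per the file headers and the submitters' processing notes, reads were aligned with STAR 2.7.7 and the deposited counts per gene were made with featureCounts 2.0.1 on GRCh38 with Ensembl 102 annotation, unstranded, with multi-mapped reads counted at every place and overlapping genes each counted. A DESeq2 table, per the file headers, holds the mean normalized signal (baseMean) with a log2 fold change and an adjusted p-value for each antibody, and 0 or 1 fills genes without a value. Per the file headers, the authors' editing tables give per gene a site count, a score, a log value (natural log was assumed, as the base is not stated) and an adjusted p-value over pooled replicates; only gene names were used from them.

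From the deposited counts, 1 row that is no human gene was dropped (at most 0.000312% of counts), genes were filtered with edgeR's filterByExpr (31849 of 60675 tested, 5 of 5 copies among them), scaled by TMM and fitted with edgeR 4.0.16 (R 4.3.3, limma 3.58.1), 1 quasi-likelihood model over the 12 groups, with Benjamini-Hochberg adjustment over all genes and a limit of 0.05. DESeq2 1.42.0 served as an alternative; others were total-count scaling, no filter, only the groups compared, a replicate block and leaving out each library. On simulated counts for YTHDF1 RIP against input in YTHDF1-ADAR cells (30007 genes), 68% of changes of log2 1 and 98% of log2 2 were recovered, with 4 false among 170 calls. The simulation changed 100 genes at each size, all with an average log2 CPM above 1, and gave the groups the same mean otherwise. In the data 49.5% of genes were called there, so these rates do not test the scaling of the data. Symbols came from the authors' table (40818), the reference table (1276) or were absent (18581). The highest correlation between 2 libraries was 0.991, so all were counted as separate.

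The members and lists were chosen with earlier results of these data known. Named were the 5 copies, up to 4 most abundant genes of each list, the 3 most abundant other U1 genes and the 5 genes most like U1; others were named after their values were seen. Same-numbered libraries deviated together beyond 0.1 in all 3 pairs only for YTHDF3 against YTHDF2 RIP in YTHDF1-ADAR cells (lowest correlation 0.138). Leaving out the 6 libraries that stood apart was chosen after seeing the data.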

Additional observations from a re-analysis of the deposited data

Results flagged for a closer look

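The change of U1 RNA from input to YTHDF1 RIP differed between lines by the interaction test itself, for each of the 5 copies. The log2 difference of YTHDF1-ADAR cells from the mean of the other lines was -3.25 ± 0.87 (SE) for RNU1-1 (adjusted p = 0.00620, edgeR), -3.34 ± 0.88 for RNU1-2 (0.00557), -3.40 ± 0.88 for RNVU1-18 (0.00484), -3.41 ± 0.89 for RNVU1-7 (0.00492) and -3.49 ± 0.89 for RNVU1-29 (0.00407). The adjusted p-values are of the F test for any difference among the lines, not of these log2 differences. Multi-mapped reads were counted at each copy, so the 5 values are not independent. RNU1-1 in YTHDF1 RIP was at 35.96 to 261 CPM in YTHDF1-ADAR cells and at 375 to 1404 CPM in the other lines, whose 6 libraries also stood apart in their snoRNA and mitochondrial shares. A low RNU1-2 value in YTHDF1 RIP of YTHDF1-ADAR cells, which is 1 side of this test, was known from earlier results, so the p-values are not independent support. Line and library set cannot be told apart.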

How the results depend on the processing

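Under DESeq2, total-count scaling and the replicate block, 45 of 45 tested values of the 5 copies kept their direction and their side of the threshold in each setting, as did 30 of 30 without the 6 libraries that stood apart, an alternative chosen after seeing the data (RNU1-1 in YTHDF1 RIP of YTHDF1-ADAR cells at -3.63, adjusted p = 0.000817, edgeR). The replicate block gave RNU1-1 -3.44 there (adjusted p = 0.000641, edgeR) and -3.10 between lines (adjusted p = 0.0110, edgeR), and changed no call of a copy; where numbers paired, the median of YTHDF3 against YTHDF2 RIP was 2.13.
Without the filter on low counts, 5 copies were called, against 0, in inputs of YTHDF1-ADAR against YTHDF2-ADAR and against YTHDF3-ADAR cells, in YTHDF1 RIP of YTHDF3-ADAR cells and for YTHDF3 RIP between lines, and RNU1-1 in YTHDF1 RIP of YTHDF2-ADAR cells turned to -0.0298; the cause was not tested. A fit of only the groups compared also called 5 in YTHDF1 RIP of YTHDF3-ADAR cells. RNU1-1 there was at 422 CPM with total-count scaling and 414 with DESeq2 size factors, against 387.
Leaving out 1 library at a time, the copies' values ran as follows. In inputs of YTHDF2-ADAR against YTHDF3-ADAR cells they ran from -0.24 to 0.86 (RNU1-1), -0.24 to 0.87 (RNU1-2), -0.25 to 0.86 (RNVU1-7), -0.23 to 0.87 (RNVU1-18) and -0.24 to 0.88 (RNVU1-29), lowest without YTHDF2-ADAR input replicate 1. For YTHDF1 RIP of YTHDF2-ADAR cells they ran from -0.64 to 0.45, -0.57 to 0.54, -0.48 to 0.62, -0.51 to 0.59 and -0.43 to 0.69 in that order of copies, lowest without input replicate 3. For YTHDF2 RIP between lines they ran from -0.13 to 1.04, -0.14 to 1.04, -0.13 to 1.06, -0.13 to 1.04 and -0.13 to 1.02, lowest without YTHDF2 RIP replicate 3 of YTHDF1-ADAR cells. For YTHDF3 RIP between lines they ran from -1.03 to 0.0306, -1.03 to 0.0408, -1.03 to 0.0426, -1.03 to 0.0450 and -1.02 to 0.0583, highest without YTHDF3 RIP replicate 2 of YTHDF2-ADAR cells. None of these was called. Medians over the copies ran from -2.26 to -0.17 for YTHDF3 RIP against input in YTHDF2-ADAR cells, and for YTHDF3 against YTHDF2 RIP from 1.99 to 2.95 in YTHDF1-ADAR and 3.00 to 4.997 in YTHDF2-ADAR cells. The YTHDF1 RIP difference between lines was called in each (adjusted p up to 0.0487 for RNU1-1, edgeR).
Total-count scaling moved the median of all genes by up to 0.52 (YTHDF1 RIP of YTHDF2-ADAR cells) and the share of higher among called genes in YTHDF2 RIP from 35.9%, 50.0% and 47.5% to 57.7%, 71.5% and 70.9%, and in YTHDF3 RIP from 36.3%, 47.4% and 45.6% to 60.0%, 68.5% and 64.9%. The calls among all genes in inputs fell from 5614 to 1620 and from 5233 to 1719 with only the groups compared, and rose from 1088 to 3188. Of 81 list counts, these moved by over 1.5 times: 19 with only the groups compared, 13 without the filter and 9 with total-count scaling.
Depth does not limit the 5 copies, which had counts in all libraries; it limits the U1 genes under 1 CPM. Replicate spread sets the precision, and reads that fit several copies cannot be assigned to 1.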
